A study of Mus musculus with 3 samples.

Results

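The genes described here are 10 markers of the first macrophages and leukocytes of the mouse embryo, namely Spi1, Csf1r, Cx3cr1, Fcgr3, Fcer1g, Tyrobp, Ptprc, Laptm5, Coro1a and Cd68. They were chosen by name, with earlier results of these data known. All 10 are among the 23410 named genes of the array, where they have 16 of 55681 non-control probes. RNA of Brpf1-deficient and of wild-type embryos, both collected at E8.75 without treatment, was compared on 3 two-colour Agilent arrays. Every array held Brpf1-deficient RNA in Cy5 and wild-type RNA in Cy3, as labelled, and stands for 1 pair. Brpf1 encodes a scaffold of histone acetyltransferase complexes. The labels give neither the allele, nor the number of embryos behind an RNA, nor whether the yolk sac was included. As the dye orientation was the same throughout, an effect of dye and one of genotype cannot be told apart. The p-values rest on the spread between these 3 pairs, moderated over all tested probes, and on no other samples.

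Macrophages of the early embryo arise in the yolk sac from erythro-myeloid progenitors and spread through the circulation into the tissues, where some become microglia. Their formation depends on the transcription factor PU.1, encoded by Spi1, and on the receptor for colony-stimulating factor 1. Mature cells carry Fc receptors and related receptors that signal through short adaptor proteins with ITAM motifs, which recruit the kinase SYK. CD45, coronin 1A and LAPTM5 are shared by most leukocytes, whereas CD68 is a lysosomal membrane protein abundant in macrophages.

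Ratios of Cy5 over Cy3 are given on the log2 scale after background correction and loess normalization, so a positive value means a brighter Cy5 channel, labelled Brpf1-deficient. Probes entered the test where 1 channel was well above background on 2 or more of the 3 arrays, which left 31603 probes. The test was limma's moderated test of the mean over 3 pairs with Benjamini-Hochberg adjustment over all of these probes and a threshold of 0.05. Every SE given with a mean log2 ratio is the moderated standard error of that test, and the confidence intervals rest on it. It draws on the spread of all tested probes. It can therefore be larger or smaller than the SE of the 3 printed ratios alone. Normalised intensities are given in arbitrary units and compared only within a probe. Between 49.4% and 51.9% of all probes were well above background in Cy5 and between 54.2% and 59.9% in Cy3. Brpf1 itself had normalised intensities of 8648, 6112 and 4419.9 in Cy5 and 2154, 2269.7 and 2116 in Cy3 in pairs 1, 2 and 3. Its mean log2 ratio was 1.50 ± 0.19 (SE, n = 3 pairs; limma adjusted p = 0.0596). The adjusted p was 0.0403 where 1 probe a gene was tested and ranged from 0.0253 to 0.4 over all alternatives. The disrupted gene was thus brighter, not dimmer, in the channel labelled Brpf1-deficient. Where its probe lies relative to the disrupted part was not analysed here. Directions are therefore given for Cy5 and Cy3 with their labels.

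None of the 12 tested member probes, which cover 8 of the 10 genes, passed the threshold. Over all probes 0.813% passed, 0.788% with higher and 0.0253% with lower signal in Cy5, and among the 17573 probes no brighter than the brightest member 0.0569% did. Signal was lower in Cy5 than in Cy3 for 6 of the 8 genes and higher for Fcgr3 and Cd68. The median ratio of all tested probes was -0.02. The smallest adjusted p of a member was 0.238, that of Fcgr3. At an unadjusted p below 0.05 there were 4 member probes, 2 above and 2 below 0, which is 33.3% of the members tested against 16.2% of all probes. The sign was the same in all 3 pairs for 7 of the 12 probes, or 58.3%, against 42.7% of all probes. Ptprc is in both counts and among the 6 genes lower in Cy5, although it entered the test through Cy3 alone. These counts therefore support no direction. For bulk RNA of this kind, fewer cells of a type and less RNA per cell cannot be told apart.

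**Figure D1:**
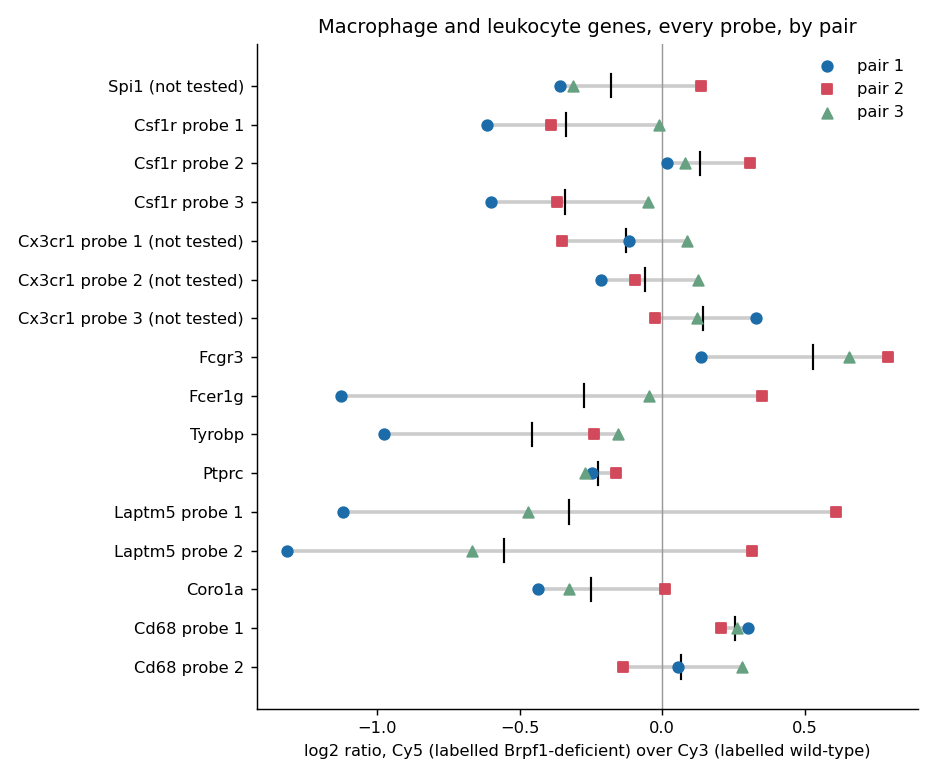
Log2 ratio of Cy5 (labelled Brpf1-deficient) over Cy3 (labelled wild-type) for every probe of the 10 genes, with 1 symbol for each pair, a grey bar for the range and a black tick for the mean of the 3 pairs. Fcgr3 and the first Cd68 probe lie above 0 in all pairs, while Fcer1g and both Laptm5 probes span both sides of 0 and are lowest in pair 1.

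The transcription factor and the chemokine receptor were at the limit of detection. Spi1, the master regulator of macrophage and other myeloid fates, had median spot intensities of 171, 170 and 136 in Cy5 over local backgrounds of 150, 155 and 131. In Cy3 they were 120, 90.5 and 103 over backgrounds of 57, 54.5 and 52. Spi1 was well above background in Cy3 on 1 array and in Cy5 on none, and was not tested. Cx3cr1, the receptor for fractalkine that marks macrophages and microglia, has 3 probes, none of which was well above background in either channel on any array. Their spot intensities ranged from 105 to 179.5 in Cy5 and from 61 to 107.5 in Cy3. No statement on a difference in Spi1 or Cx3cr1 can be made at this signal.

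Csf1r, the receptor for colony-stimulating factor 1 and interleukin 34 that macrophages need for survival, was measured by 3 probes. The brightest had normalised intensities of 788, 694 and 838 in Cy5 and 1206, 910.0 and 845 in Cy3 in pairs 1, 2 and 3. All Cy5 levels lay below all Cy3 levels, by a clear margin in pair 1 and by very little in pair 3. The log2 ratios were -0.61, -0.39 and -0.01, with a mean of -0.34 ± 0.14 (SE, n = 3; limma adjusted p = 0.32; 95% interval -0.69 to 0.01). The dimmest probe gave nearly the same ratios, -0.60, -0.37 and -0.05 (mean -0.34 ± 0.13, adjusted p = 0.303). The third probe went the other way, with 0.02, 0.31 and 0.08 (mean 0.13 ± 0.10, adjusted p = 0.511). The 3 probes carry the same RefSeq accession on the array, so the annotation does not tell which one follows the receptor's transcript. The known ligands showed no call either. The log2 ratio was -0.13 ± 0.12 for Csf1 (adjusted p = 0.613) and 0.13 ± 0.11 for Il34 (adjusted p = 0.569). It was 0.12 ± 0.13 for Cx3cl1, which encodes fractalkine, the ligand of CX3CR1 (adjusted p = 0.654).

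Fcgr3, an activating low-affinity receptor for immunoglobulin G, had the largest positive ratio of the members. Its normalised intensities were 1729, 1794 and 2901 in Cy5 and 1575, 1034 and 1842 in Cy3. Cy5 was brighter within every pair, although the 2 sets of levels overlap across pairs. The log2 ratios of 0.13, 0.79 and 0.65 gave a mean of 0.53 ± 0.15 (SE, n = 3; limma adjusted p = 0.238), a 1.44-fold difference with a 95% interval of 0.14 to 0.92 on the log2 scale. Fcgr4, a related receptor chosen after its values were seen, had -0.07 ± 0.11 (adjusted p = 0.745). On no array was its Cy5 signal well above background. Fcgr2b, the inhibitory relative, was not bright enough to be tested.

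Fcer1g and Tyrobp encode the ITAM adaptors FcR gamma and DAP12. FcR gamma is the signalling partner of the receptor that Fcgr3 encodes. Fcer1g had normalised intensities of 425, 517 and 568 in Cy5 and 930.1, 405 and 587 in Cy3. The Cy3 level of pair 1 stood above all others, while the remaining levels of both channels were intermixed. The log2 ratios were -1.13, 0.35 and -0.05, with a mean of -0.27 ± 0.29 (SE, n = 3; limma adjusted p = 0.651), so neither direction held over the pairs. Tyrobp gave 222, 184 and 231 in Cy5 and 437, 217 and 257 in Cy3. Here too the Cy3 level of pair 1 was the highest, but Cy5 was dimmer within every pair. The ratios of -0.98, -0.24 and -0.15 had a mean of -0.46 ± 0.18 (adjusted p = 0.321; 95% interval -0.93 to 0.02). Without pair 1 the mean was -0.20 for Tyrobp and 0.15 for Fcer1g.

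Ptprc, which encodes the phosphatase CD45 found on nearly all leukocytes, was dim. Its normalised intensities were 133, 122 and 118 in Cy5 and 157, 136 and 143 in Cy3. All Cy5 levels lay below all Cy3 levels, and the ratios of -0.25, -0.16 and -0.27 had a mean of -0.23 ± 0.08 (SE, n = 3; limma adjusted p = 0.288). They depended on the background treatment, with -1.06, 0.10 and -1.04 for the scanner software's processed signals and -0.31, -0.014 and -0.21 without background correction. The probe was well above background in Cy3 on 2 arrays and in Cy5 on none. It thus passed the filter only through the channel in which it was brighter, and no fold is given. Of the other 11 tested member probes, 4 had Cy5 and Cy3 levels that did not overlap, namely the 3 of Csf1r and the brighter one of Cd68. Over all probes the share was 19.1%.

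Laptm5, a lysosomal protein of blood cells that dampens antigen receptor signalling, differed most between pairs. Its brighter probe had normalised intensities of 377, 909 and 813 in Cy5 and 821, 595 and 1127 in Cy3. The Cy5 level of pair 1 was the lowest of all, whereas in pair 2 Cy5 was the brighter channel. The log2 ratios were -1.12, 0.61 and -0.47 (mean -0.33 ± 0.33, SE, n = 3; limma adjusted p = 0.637). The dimmer probe followed the same order with -1.32, 0.32 and -0.67 (mean -0.56 ± 0.31, adjusted p = 0.428). Over the 3 pairs the SD of the ratio was 0.88 and 0.82 for these probes and 0.77 for Fcer1g. Only 1.41%, 1.70% and 2.00% of all tested probes had an SD as large.

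Coro1a, an actin regulator of leukocytes, and Cd68 were among the brighter members. Coro1a had 1179, 1086 and 1089.5 in Cy5 and 1597, 1079 and 1367 in Cy3. The channels were alike in pair 2 and Cy5 was dimmer in the other pairs, with ratios of -0.44, 0.01 and -0.33 (mean -0.25 ± 0.12, SE, n = 3; limma adjusted p = 0.361). Cd68 had 2006, 1767 and 1816 in Cy5 and 1629, 1533 and 1513 in Cy3 at its brighter probe. All Cy5 levels lay above all Cy3 levels, with ratios of 0.30, 0.20 and 0.26 (mean 0.26 ± 0.08, adjusted p = 0.254). With median centring in place of loess they were 0.28, -0.18 and 0.27 (mean 0.12, adjusted p = 0.796). The dimmer Cd68 probe, with 0.05, -0.14 and 0.28, had a mean of 0.07 ± 0.11 (adjusted p = 0.78). Among 9 tested relatives, namely other coronins, CD68 relatives and receptor phosphatases, none passed. The smallest p belonged to the coronin gene Coro1b (0.13 ± 0.08, adjusted p = 0.451) and the phosphatase genes Ptpra (-0.21 ± 0.13, adjusted p = 0.459) and Ptpre (0.19 ± 0.13, adjusted p = 0.507).

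**Figure D2:**
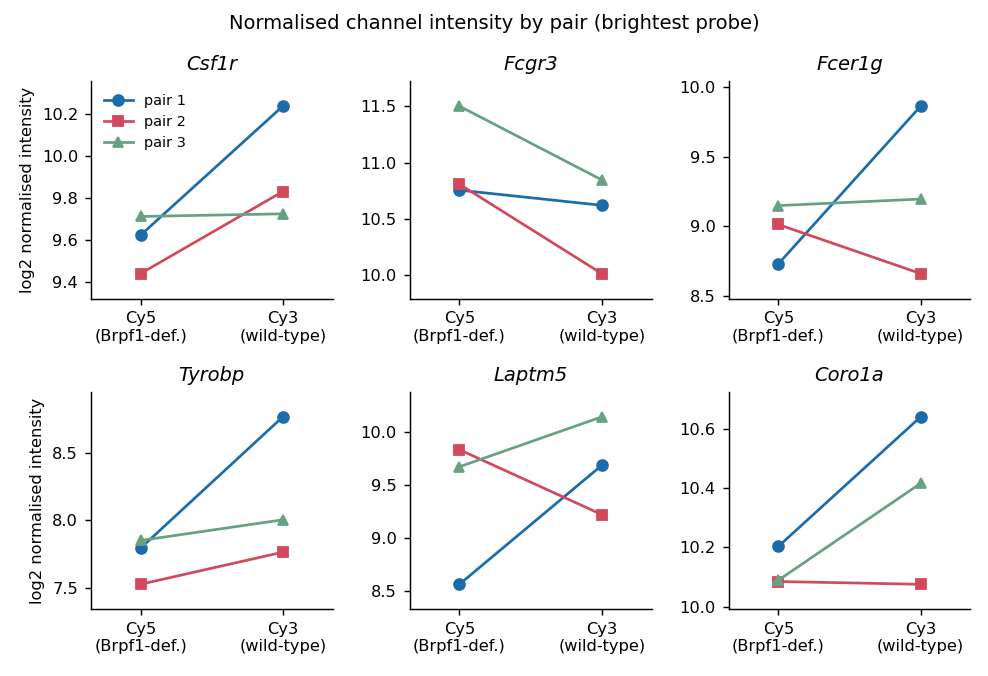
Log2 normalised intensity of the brightest probe of 6 genes in Cy5 (labelled Brpf1-deficient, left) and Cy3 (labelled wild-type, right), with 1 line for each pair. The line of pair 1 climbs towards Cy3 in every panel except that of Fcgr3. The line of pair 2 climbs towards Cy5 for Fcgr3, Fcer1g and Laptm5 and is nearly level for Coro1a.

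The promoters of 3 members are shown because Fcer1g and Laptm5 varied most between pairs and Fcgr3 had the largest positive ratio. The windows run from 250 bases before to 50 bases after the annotated start, are taken from RefSeq on the GRCm38.p6 build and are written in the direction of the gene. They cover chr1:171234300-171234599 (minus strand) for Fcer1g, chr4:130913066-130913365 (plus strand) for Laptm5 and chr1:171059354-171059653 (minus strand) for the first of 2 annotated starts of Fcgr3. Capitals mark GAGGAA and GGAAGT, hexamers of the purine-rich kind that PU.1 and other ETS factors bind, found on either strand, with TTCCTC as the reverse complement of GAGGAA.
Fcer1g: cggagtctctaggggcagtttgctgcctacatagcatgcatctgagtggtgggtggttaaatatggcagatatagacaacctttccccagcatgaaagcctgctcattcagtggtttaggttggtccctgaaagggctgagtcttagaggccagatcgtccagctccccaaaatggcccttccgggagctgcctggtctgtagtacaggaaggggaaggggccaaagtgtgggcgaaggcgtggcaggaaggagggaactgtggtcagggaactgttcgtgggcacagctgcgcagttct
Laptm5: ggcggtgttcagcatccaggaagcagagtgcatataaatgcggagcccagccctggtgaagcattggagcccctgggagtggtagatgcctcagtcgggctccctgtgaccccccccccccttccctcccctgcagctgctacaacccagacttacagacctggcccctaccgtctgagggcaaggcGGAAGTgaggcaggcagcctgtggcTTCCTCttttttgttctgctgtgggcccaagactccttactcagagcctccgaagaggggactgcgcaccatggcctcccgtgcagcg
Fcgr3: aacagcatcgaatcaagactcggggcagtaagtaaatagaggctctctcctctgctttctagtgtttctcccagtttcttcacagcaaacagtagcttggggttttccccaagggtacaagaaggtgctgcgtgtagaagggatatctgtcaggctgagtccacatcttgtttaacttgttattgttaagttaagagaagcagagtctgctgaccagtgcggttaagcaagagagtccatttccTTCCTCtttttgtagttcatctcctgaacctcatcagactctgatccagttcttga
Laptm5 holds both hexamers, Fcgr3 holds GAGGAA and the Fcer1g window holds neither. For 7 members 10 windows of the same length were searched, and none of Csf1r, Spi1 or Tyrobp. At least 1 of the hexamers is in 6 of the 10 windows and in 4 of the 7 genes, while 43.4% of all 32851 windows hold 1. The windows of Fcgr3 overlap each other, as do those of Ptprc, so a site can be counted more than once. A chromosome left out for the members was kept among all windows, so the shares come from unlike sets. GAGGAA alone is in 28.3% and GGAAGT alone in 23.8% of all windows, overlaps between the 2 included. These matches describe the letters of the windows only.

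Ratios of a member differed between pairs. The median SD over the pairs was 0.33 for the 8 measured members and 0.16 for all tested probes. The median ratio of the 8 measured members, Ptprc included, was -0.53, 0.11 and -0.10 in pairs 1, 2 and 3. Over the pair means it was -0.26, while the median of all tested probes was -0.02 in each pair. In pair 1 the ratio was the lowest of the 3 for 9 of 12 member probes, or 75%, against 24.3% of all probes. The exceptions were Ptprc and the 2 Cd68 probes. The Cy3 level of pair 1 was the highest of the 3 Cy3 levels for 9 of the 12 (29.2% of all probes), and the Cy5 level of pair 1 was the lowest of the 3 Cy5 levels for 5 (27.7% of all probes). Ptprc and both Cd68 probes are among the 9 with the highest Cy3 level, although their ratio was not the lowest in pair 1. Both Laptm5 probes had their lowest Cy5 level in pair 1. A highest Cy3 level in pair 1 was not particular to the members. Over the 15 further lists described below its share ranged from 0% for neural tube genes to 90.9% for primitive erythroid genes. It was 72.2% for lysosome genes found in most cells. With 1 array for each pair, no test of a difference between pairs exists.

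Of 29 pan-leukocyte genes 21 were measured, and none passed, against 0.95% of all genes with 1 probe each. The list median was -0.19 over the pairs and -0.44, 0.03 and 0.07 in pairs 1, 2 and 3. In pair 1, 18 of the 21 lay below 0, and the ratio of pair 1 was the lowest for 16. Ncf1, the p47 subunit of the phagocyte NADPH oxidase, had -0.51 ± 0.09 (SE, n = 3; limma adjusted p = 0.126), with Cy5 signal not well above background on the 3 arrays, and -1.68 with processed signals. Itgb2, the beta chain of leukocyte integrins, had -0.47 ± 0.13 (adjusted p = 0.241).

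The median of macrophage genes proper was closer to 0. Of 28 in this list 16 were measured, with a median of -0.01 and medians of -0.10, -0.02 and 0.03 in pairs 1, 2 and 3, and none passed. Pair 1 had the lowest ratio for 12 of the 16. Folr2, a folate receptor of tissue macrophages, had 0.30 ± 0.09 (SE; limma adjusted p = 0.251), and Lyve1, a hyaluronan receptor of macrophages and of yolk sac and lymphatic endothelium, 0.58 ± 0.22 (adjusted p = 0.3). Aif1, which encodes IBA1, had -0.30 ± 0.09 (adjusted p = 0.245), again with Cy5 signal not well above background throughout, and -1.11 with processed signals. Adgre1, which encodes the macrophage antigen F4/80 and was chosen after its values were seen, had -0.04 ± 0.09 (adjusted p = 0.847). Among the 12 genes of the list that were not bright enough to be tested were C1qa, Cd163, Timd4 and P2ry12.

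The list of ITAM signalling partners, which holds receptors as well as molecules downstream of the adaptors, had 14 of 20 genes measured. Of these 1 was higher in Cy5 and none lower. The call was Pirb (1.12 ± 0.09, SE, n = 3; limma adjusted p = 0.0377), an inhibitory immunoglobulin-like receptor. Its probe had a mean log2 intensity of 17.6, far above that of any member and like that of the embryonic globin Hbb-bh1 (17.6). Whether the probe follows the Pirb transcript was not tested. With a loess span of 0.02 the ratio of Pirb was 0.12 (adjusted p = 0.577). Over all alternatives its adjusted p ranged from 0.0051 to 0.577, and it was 0.4, 0.0525 and 0.183 without pair 1, 2 and 3. Of the 257 calls over all probes, 10 were no brighter than the brightest member. Ptpn6, the phosphatase SHP-1 of blood cells, had log2 ratios of -0.48, -0.73 and -0.49 (mean -0.57 ± 0.09, adjusted p = 0.107). Inpp5d, the lipid phosphatase SHIP1, had -0.43 ± 0.12 (adjusted p = 0.233). Syk, the kinase that ITAMs recruit, had -0.25 ± 0.12 (adjusted p = 0.368), and Trem2, a receptor that signals through DAP12, had -0.24 ± 0.19 (adjusted p = 0.536). Both were picked with their values in view.

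Of 18 myeloid transcription factors 17 were measured, and none passed, with a median of -0.02. Batf3, a factor of dendritic cell development, had 0.38 ± 0.08 (SE; limma adjusted p = 0.185), Myb, a factor of later blood progenitors that yolk sac macrophages do not need, -0.24 ± 0.08 (adjusted p = 0.275) and Maf, a factor of macrophage identity, 0.24 ± 0.10 (adjusted p = 0.349). The dimmer Maf probe had 7.5e-05 ± 0.09. None of 18 lysosome genes found in most cells passed either, and their median was 0.04. Ctsl, a cathepsin, had 0.52 ± 0.09 (adjusted p = 0.118), Psap, which encodes prosaposin, -0.36 ± 0.11 (adjusted p = 0.253) and Lamp1, a membrane glycoprotein, 0.26 ± 0.10 (adjusted p = 0.309). Ctsl passed with median centring (0.96, adjusted p = 0.0419) and had 0.31 with a loess span of 0.02 and 0.10 with processed signals. Lamp1 had 0.72, 0.016 and -0.031 under these settings.

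**Figure D3:**
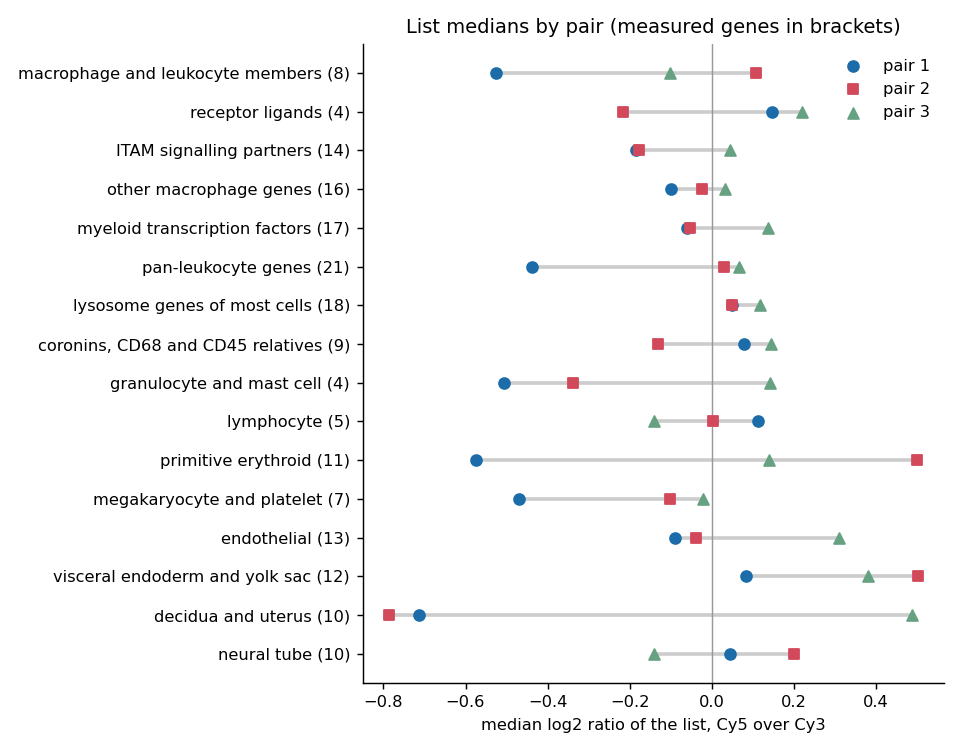
Median log2 ratio of Cy5 over Cy3 in each pair for the members and for 15 further gene lists, with the number of measured genes in brackets and a grey bar for the range. Pair 1 is the lowest of the 3 for the members (-0.53) and for most blood and leukocyte lists, as well as for the endothelial (-0.09) and visceral endoderm (0.08) genes, and it is the highest for the lymphocyte genes (0.11).

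The 11 primitive erythroid genes, all measured, had medians of -0.57, 0.50 and 0.14 in pairs 1, 2 and 3, in the same order as the members, and the Cy3 level of pair 1 was the highest for 10 of them. Their summed normalised intensity ranged from 554527 to 944284 in Cy5 and from 249975 to 936583 in Cy3. No erythroid gene passed. The embryonic globin Hbb-bh1 had 1.28 ± 0.17 (SE; limma adjusted p = 0.0617), Hba-x 0.55 ± 0.21 (adjusted p = 0.303) and the blood transcription factor Tal1 -0.27 ± 0.13 (adjusted p = 0.38). Hbb-bh1, whose probe had a mean log2 intensity of 17.6, was at 0.23 (adjusted p = 0.783) with a loess span of 0.02, at 0.47 (adjusted p = 0.477) with processed signals and at 1.89 (adjusted p = 0.0051) with median centring. It passed without a filter as well (adjusted p = 0.042) and with 1 probe a gene (adjusted p = 0.0416). Hba-x passed with median centring (1.12, adjusted p = 0.0248). The 7 measured of 10 megakaryocyte and platelet genes had medians of -0.47, -0.10 and -0.02. Clec1b, a platelet receptor, had 0.65 ± 0.09 (adjusted p = 0.0666) and Vwf, von Willebrand factor, -0.22 ± 0.09 (adjusted p = 0.335). Clec1b passed without a filter (limma adjusted p = 0.0476) and with 1 probe a gene (adjusted p = 0.046), but not with a span of 0.02 (adjusted p = 0.318). Its dimmer probes had 0.48 (limma adjusted p = 0.135) and 0.67 (adjusted p = 0.0587). The sums of this list ranged from 5106 to 6459 in Cy5 and from 4878 to 7147 in Cy3. The part of blood content in the members' ratios was not tested.

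Of 13 granulocyte and mast cell genes 4 were measured, with medians of -0.51, -0.34 and 0.14 and sums of 1458 to 2111 in Cy5 and 1391 to 2534 in Cy3. Prtn3, the granule protease 3, had -0.42 ± 0.08 (SE; limma adjusted p = 0.149), Elane, neutrophil elastase, 0.29 ± 0.11 (adjusted p = 0.32) and Mpo, myeloperoxidase, -0.26 ± 0.13 (adjusted p = 0.399). Ltf, Ngp, Camp and S100a9, which mark mature neutrophils, were not bright enough to be tested. Of 14 lymphocyte genes 5 were measured, with a median of -0.01 over the pairs and 0.11, 0.0040 and -0.14 in pairs 1, 2 and 3. Pair 1 had the lowest ratio for 1 of the 5. Ms4a1, Cd3g, Cd3d, Rag1 and Rag2 were not bright enough. Cd79b had -0.40 ± 0.10 (adjusted p = 0.201), Cd2 -0.27 ± 0.11 (adjusted p = 0.328) and Nkg7 0.12 ± 0.08 (adjusted p = 0.471; its dimmer probe -0.29). The sums of the lymphocyte genes were 5313 to 6134 in Cy5 and 5135 to 6249 in Cy3.

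All 10 decidua and uterus genes, of maternal tissue, were measured, with medians of -0.71, -0.79 and 0.49 and sums of 70551 to 109664 in Cy5 and 87231 to 136893 in Cy3. Prl8a2, a prolactin relative of the decidua, had ratios of -0.74, -3.55 and 0.60 (mean -1.23 ± 0.79, SE; limma adjusted p = 0.471). Igfbp5 had -0.65 ± 0.12 (adjusted p = 0.136) and Col6a1 -0.80 ± 0.18 (adjusted p = 0.188). The 12 visceral endoderm and yolk sac genes had medians of 0.08, 0.50 and 0.38 and sums of 739296 to 1064438 in Cy5 and 489989 to 829161 in Cy3. In that list Rbp4 had 0.81 ± 0.12 (adjusted p = 0.0789), Ttr 0.65 ± 0.14 (adjusted p = 0.183) and Apoa1 0.43 ± 0.11 (adjusted p = 0.209). With median centring they passed, Rbp4 at 1.32 (adjusted p = 0.0124), Ttr at 1.12 (adjusted p = 0.0413) and Apoa1 at 0.80 (adjusted p = 0.0459). With a loess span of 0.02 Rbp4 had 0.33 and Ttr 0.35, and with processed signals the values were 0.42 for Rbp4, 0.36 for Ttr and 0.26 for Apoa1. The 13 endothelial genes had medians of -0.09, -0.04 and 0.31, with Plvap at 0.49 ± 0.10 (adjusted p = 0.172), Tie1 at 0.27 ± 0.09 (adjusted p = 0.27) and Pecam1 at -0.19 ± 0.11 (adjusted p = 0.439). The 10 neural tube genes had medians of 0.04, 0.20 and -0.14. Fabp7 was at 0.60 ± 0.08 (adjusted p = 0.0617), Dll1 at -0.41 ± 0.10 (adjusted p = 0.201) and Sox2 at -0.20 ± 0.11 (adjusted p = 0.399). Fabp7 passed without a filter (limma adjusted p = 0.0437) and with 1 probe a gene (adjusted p = 0.0424), but not with a span of 0.02 (adjusted p = 0.318). The part of these tissues in the members' ratios was not tested.

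The authors' deposited table lists 13 of the 16 member probes. Its log2 ratio runs opposite to Cy5 over Cy3, with a correlation of -0.802 over 39915 shared probes. Once turned, the authors' deposited table gives Fcgr3 at 0.59 (adjusted p = 0.46) and the brighter Cd68 probe at 0.30 (adjusted p = 0.461). In the authors' deposited table the turned values are -0.82 for Ptprc (adjusted p = 0.516) and -0.60 for Tyrobp (adjusted p = 0.538). All 11 listed probes that were tested here have the same sign there as in the present ratios, which come from the same arrays.

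**Figure D4:**
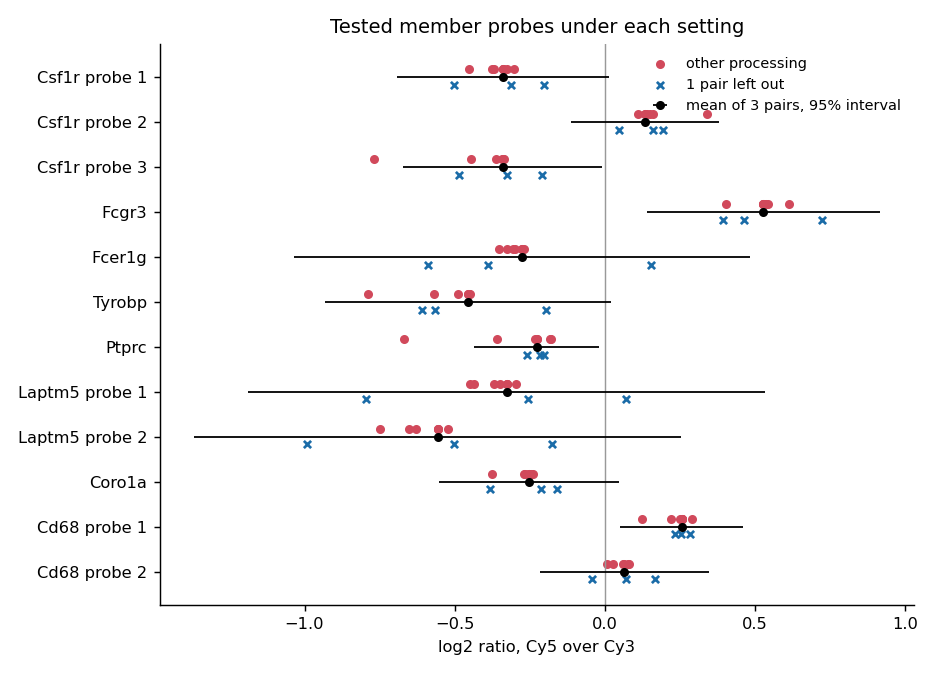
Log2 ratio of Cy5 over Cy3 of the 12 tested member probes as the mean of 3 pairs with its 95% interval (black), with 1 pair left out (blue crosses) and under other processing (red points). Leaving out a pair turns the sign of Fcer1g, of the brighter Laptm5 probe and of the dimmer Cd68 probe, and none of the red points lies across 0 from its black point.

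With the scanner software's processed signals, to which no offset had been added, the mean log2 ratio was -0.67 for Ptprc, -0.79 for Tyrobp, -0.77 for the dimmest Csf1r probe and 0.34 for the Csf1r probe that lay above 0. With a normexp offset of 0 Ptprc had -0.36. None of these passed the threshold (limma adjusted p between 0.224 and 0.388).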

How the data were processed

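Spot and local background intensity values are median brightness on a linear scale, read by the authors with Feature Extraction 10.7.3.1, per the file headers. The headers give 1 slide and 1 scan time for all 3 arrays, which leaves no such batch to test. Processed intensities, per the file headers, were background-subtracted and dye-normalized by the scanner software. The deposited log10 ratio was not used. The deposited table of the authors gives a log2 ratio, a mean log2 intensity, p-values and 2 scores (moderated t and log odds) for 39915 non-control probes, and the submitters' processing notes name limma. No source used here gives its settings. Per the labels' protocols, RNA was amplified once before labelling.

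Background was corrected with normexp (offset 50), and loess (span 0.3) was run within each array, giving weight 0 to outlier and control spots. Spots of 1 probe were then averaged without outliers. Detection needed at least 0.5 of a probe's spots. The two-sided limma test (version 3.58.1, R 4.3.3) fitted the mean ratio alone with lmFit and eBayes and was tested on simulated data. Channel levels were scaled between arrays with Aquantile. The number of arrays limits the precision. Probes were named by RefSeq accession with the GRCm38.p6 gene table (27634 of 28066 probes with an NM or NR accession matched 1 gene) and otherwise by the name in the authors' table. For lists, the brightest tested probe stands for a gene, and Vav1 is in 2 lists. Members and lists were chosen with earlier results of these data known. Named besides the members were the 3 genes of each list with the smallest unadjusted p, and the text marks any other. Some genes that this rule names are not reported here. The alternatives tried were another loess span, median centring, no background correction, another offset, processed signals, other filters, 1 probe a gene and leaving out each pair.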

Additional observations from a re-analysis of the deposited data

How the results depend on the processing

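The count of 0 member probes past the threshold, in either direction, held under all 11 alternatives (at an unadjusted p below 0.05 in limma, between 1 and 6 member probes). No probe of the array passed with any 1 pair left out, a span of 0.02, an offset of 0 or processed signals. Under those alternatives the member count could only be 0. The median of the members ranged from -0.35 to -0.04 with 1 pair left out and from -0.36 to -0.24 under the other alternatives. Without pair 1 the ratio was 0.15 for Fcer1g and 0.070 for the brighter Laptm5 probe, and without pair 3 it was -0.042 for the dimmer Cd68 probe, all turned from their sign over 3 pairs. The leave-one-out ranges were -0.59 to 0.15, -0.80 to 0.070 and -0.042 to 0.17 for these probes. Also turned were Cx3cl1 (-0.00134, range to 0.26) and Adgre1 (0.039, range from -0.091) without pair 3, Fcgr4 (0.037, range from -0.15) without pair 2, Cx3cl1 with median centring (-0.014), Hba-x with a span of 0.02 (-0.34) and with processed signals (-0.15), and Lamp1 with processed signals (-0.031).

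Over all probes 249 were higher and 8 lower in Cy5. The counts were 0 and 0 with any 1 pair left out, with a span of 0.02, with an offset of 0 and with processed signals (limma, 2340 to 5037 probes at an unadjusted p below 0.05). They were 672 and 20 with median centring, 28 lower without a filter and 22 lower with 1 probe a gene. Of the list genes 1 was higher and none lower. This became 0 and 0 with any 1 pair left out, a span of 0.02, an offset of 0 or processed signals. It became 7 and 1 with median centring, and 4 and 1 both without a filter and with 1 probe a gene. The causes were not tested. The test was already paired, because each ratio is the difference within 1 pair, and there is only 1 group. Signal close to background limits Spi1, Cx3cr1 and Ptprc. Without the filter, Spi1 had -0.18 (adjusted p = 0.493) and the 3 Cx3cr1 probes -0.13 to 0.14.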
